A study of Mus musculus with 18 samples.

Results

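Libraries labelled cardiomyocyte and fibroblast from the same wild-type mouse hearts were compared across all genes. The libraries were chosen by their titles, which name a WT genotype, a cell type and an animal code, and they are 9 of the 18 libraries in the series. They came from 3 Bag3-WT mice aged 16 months with the animal codes C36 F03, C39 M01 and C40 M00, called here mice 1, 2 and 3. The control genotype carries no Bag3-P209L transgene by its label, and the sources used here do not give strain, housing or the promoter of the transgene in the other genotype. Each mouse gave 2 cardiomyocyte libraries (rep1 and rep2), whose counts were summed, and 1 fibroblast library, so that 6 columns of counts, 3 for each cell type, entered the comparison. RNA was measured by sequencing of oligo(dT)-enriched total RNA. The other 9 libraries, from 3 Bag3-P209L Tg+ mice of the same age, were used to test whether the cell type difference depended on genotype, and in an alternative fit over all 6 mice. The labels do not say how the cells were separated, or whether the fibroblasts were cultured before RNA was extracted.

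Cardiomyocytes are the contractile cells of the heart. They are packed with sarcomeres, in which myosin thick filaments pull on actin thin filaments anchored at the Z-disc, and with mitochondria that burn mainly fatty acids. Calcium released from the sarcoplasmic reticulum through the ryanodine receptor starts each contraction, and the SERCA pump, restrained by phospholamban, takes it up again. Cardiac fibroblasts make and maintain the collagen matrix, and carry the transcription factor Tcf21 and the receptor Pdgfra. The heart also holds resident macrophages, which engulf debris, present antigen and answer microbial products through Toll-like receptors, as well as endothelial cells, mural cells of vessels and a mesothelial covering, the epicardium.

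The cardiomyocyte columns held 11.6 to 17.2 M counts and the fibroblast columns 17.3 to 61.3 M (M, counts in units of 1e6). Mitochondrially encoded transcripts took 85.5%, 85.2% and 72.8% of the counts in the cardiomyocyte columns of mice 1, 2 and 3, and 74.2%, 25.1% and 31.5% in the fibroblast columns. The share was higher in the cardiomyocyte column in each of the 3 mice, by 37.6 ± 24.6 percentage points (SD, n = 3). An exact two-sided sign-flip test gave a p of 0.25, the smallest that 3 pairs can give. Among fibroblast libraries that of mouse 1 stood apart, with a mitochondrial share near that of the cardiomyocyte columns. Counts from nuclear genes were thus 2.26 to 3.14 M per cardiomyocyte column and 11.8 to 15.8 M per fibroblast column, and levels are given in CPM of these nuclear counts, scaled by the TMM method. The 2 cardiomyocyte libraries of a mouse were closer to each other (Pearson r of log2 CPM across genes 0.914 to 0.946) than libraries of different mice were (0.792 to 0.878). Nothing in the labels says that they are separate preparations, and they were counted as 1 sample. Per the labels' protocols, only the cardiomyocyte samples went through another sequencing round, so sequencing round and cell type cannot be told apart.

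The cell type labels were checked first against marker genes. Myl2, the ventricular myosin light chain, stood at 1103, 1356 and 897 CPM in the cardiomyocyte libraries of mice 1, 2 and 3 and 369, 147 and 170.0 CPM in the fibroblast libraries. The groups did not overlap, and mouse 1 had the highest level among the fibroblast libraries (log2 fold change 2.39, SE 0.38, edgeR adjusted p 0.00248). Actn2, the sarcomeric alpha-actinin of the Z-disc, stood at 206, 232 and 238 CPM in the cardiomyocyte libraries of mice 1, 2 and 3 and 72.6, 37.1 and 57.4 CPM in the fibroblast libraries, again without overlap (log2 fold change 2.06, SE 0.30, edgeR adjusted p 0.00166). In what follows, values joined by against give the cardiomyocyte libraries of mice 1, 2 and 3 first and their fibroblast libraries second, in the same order. All 14 cardiomyocyte markers on the list were higher in the cardiomyocyte libraries, with a median log2 fold change of 2.06 (range 1.47 to 3.08). The median over all 13086 genes tested was 0.02. Their number was 14, 12 and 9 when mouse 1, 2 or 3 was left out. Titin (Ttn), the giant spring of the sarcomere, had the largest difference among them, at 138, 157 and 130.0 against 33.3, 8.35 and 16.1 CPM (log2 fold change 3.08, SE 0.43, edgeR adjusted p 0.00177).

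Fibroblast markers did not separate the libraries in this way. Tcf21 stood at 31.2, 42.2 and 40.1 CPM in the cardiomyocyte libraries of mice 1, 2 and 3 and 18, 133 and 86 CPM in the fibroblast libraries. The groups overlapped, since the fibroblast library of mouse 1 lay below every cardiomyocyte library (log2 fold change −0.70, SE 0.47, edgeR adjusted p 0.292). Without mouse 1 the log2 fold change of Tcf21 was −1.43 with an edgeR adjusted p of 0.0157. Of 18 cardiac fibroblast markers, 0 were called higher and 0 lower with edgeR in all 3 mice, and their median log2 fold change was −0.08. Without mouse 1, 4 of them (Tcf21, Ddr2, Islr and Pi16) were lower in the cardiomyocyte libraries, and without mouse 2, Col1a1 and Col1a2 were higher there. Col1a1, the main chain of type I collagen, stood at 11719, 1259 and 10157 against 344, 969 and 789.9 CPM, so that its 3 cardiomyocyte values lay above the 3 fibroblast values although mouse 2 was close to them (log2 fold change 3.18, SE 1.01, edgeR adjusted p 0.0555). Pdgfra, at 168, 160.0 and 193 against 39.5, 168 and 135 CPM, and the small proteoglycan Dcn, at 1124, 1427 and 886 against 578, 2053 and 1373 CPM, overlapped between the cell types.

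Macrophage markers, by contrast, separated the libraries. Cd14, the co-receptor through which Toll-like receptors sense bacterial lipopolysaccharide, stood at 54.1, 79.1 and 62.3 CPM in the cardiomyocyte libraries of mice 1, 2 and 3 and 2123, 1839 and 1737 CPM in the fibroblast libraries. The lowest fibroblast value lay far above the highest cardiomyocyte value (log2 fold change −4.88, SE 0.36, edgeR adjusted p 0.000102). The lysosomal glycoprotein Cd68 stood at 47.4, 65.6 and 55.4 against 687, 536 and 701 CPM (log2 fold change −3.52, SE 0.32, edgeR adjusted p 0.000217), and the macrophage receptor Adgre1 (F4/80) at 86.8, 118 and 101 against 717, 565 and 659 CPM (log2 fold change −2.67, SE 0.31, edgeR adjusted p 0.000534). Csf1r, the receptor for the growth factor that macrophages depend on, stood at 306, 449.7 and 279 against 2111, 1559 and 1854 CPM (log2 fold change −2.44, SE 0.35, edgeR adjusted p 0.00151). In all, 17 of 18 macrophage markers were lower in the cardiomyocyte libraries, with a median log2 fold change of −2.21, and 0 were higher. Mertk, a receptor for engulfing dying cells, was the one not called (edgeR adjusted p 0.0537, and 0.0209 without mouse 2). No macrophage marker was at 0 counts in a cardiomyocyte column; the lowest was Timd4, with 20 counts in mouse 1.

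Levels per kilobase of exon, scaled to a sum of 1000000 over the nuclear genes of a library, allow the marker lists to be set beside each other within it. In the cardiomyocyte columns the median marker level was 555 to 792 for the cardiomyocyte list, 190 to 322 for the fibroblast list and 118 to 168 for the macrophage list. In the fibroblast columns it was 86.9 to 212 for the cardiomyocyte list, 85.0 to 233 for the fibroblast list and 403 to 585 for the macrophage list. Of these 3 lists the macrophage list had the highest median in all 3 libraries labelled fibroblast, and the cardiomyocyte list in all 3 labelled cardiomyocyte. By sums on this scale the macrophage list was again the highest of these 3 in the fibroblast columns. In the cardiomyocyte columns of mice 1, 2 and 3 the fibroblast list summed to 25607, 14746 and 18864 and the cardiomyocyte list to 15711, 18908 and 14302. The order by sums thus differed from that by medians in mice 1 and 3. The median of the erythroid and platelet list was 1288, 1085 and 328 in the fibroblast columns of mice 1, 2 and 3. It lay above that of the macrophage list there in mice 1 and 2, and was 151 to 386 in the cardiomyocyte columns. The erythroid and platelet sums were 55999, 56951 and 13870 in the fibroblast columns, where the macrophage sums were 35509, 28360 and 31756. In the cardiomyocyte columns they were 8998, 45444 and 6239, above the sums of the other lists given here in mouse 2. Summed over its members, the fibroblast list held 15322 to 34280 CPM in the cardiomyocyte columns and 8238 to 23036 CPM in the fibroblast columns. Summed cardiomyocyte markers stood at 8074 to 10480 CPM against 1654 to 3655 CPM. The names cardiomyocyte and fibroblast library below are those of the labels. In bulk RNA, fewer cells of a type and less RNA per cell cannot be told apart.

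**Figure D1:**
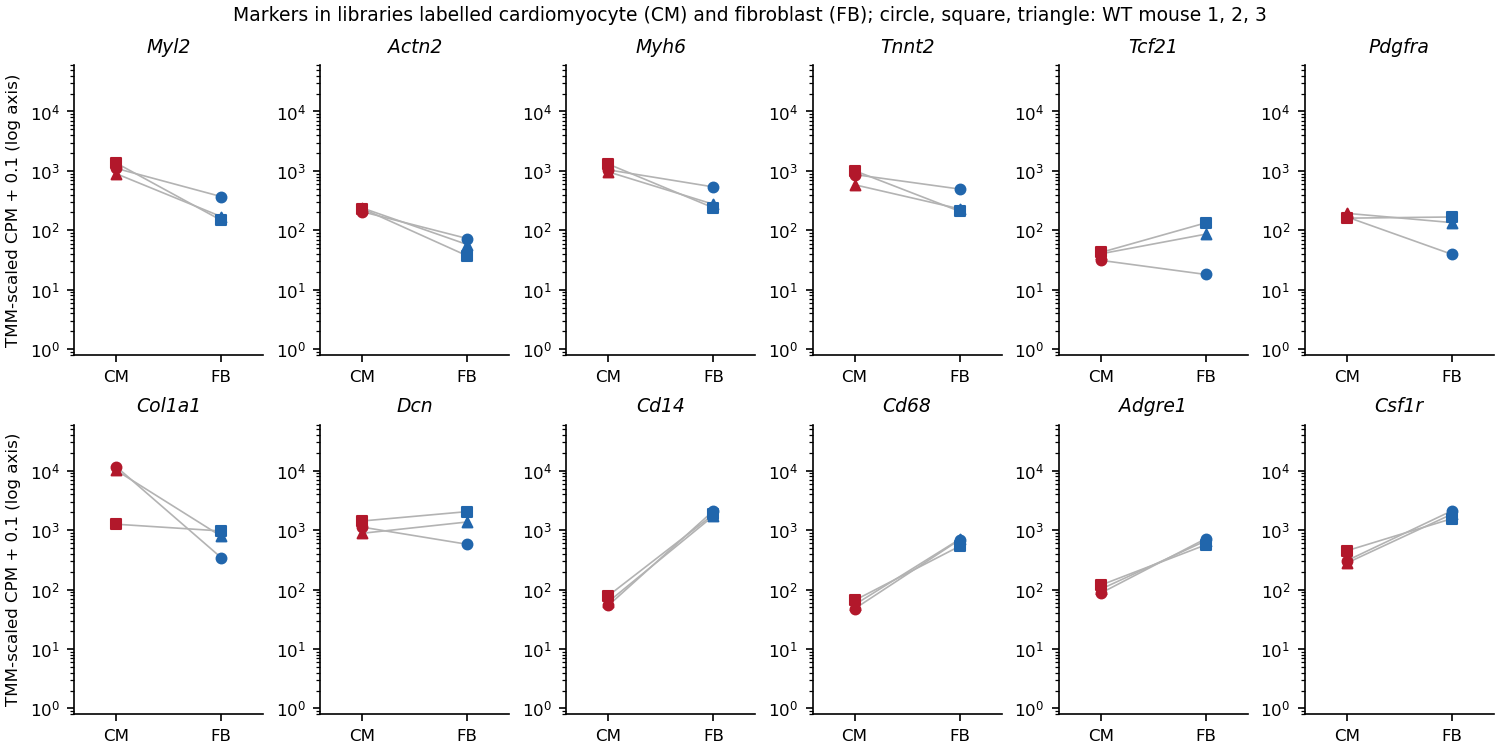
Levels of 12 marker genes in TMM-scaled CPM plus 0.1 on a log axis, 1 point per mouse and cell type, with a line joining both libraries of a mouse. The 4 cardiomyocyte genes lie higher in the cardiomyocyte (CM) libraries and the 4 macrophage genes (Cd14, Cd68, Adgre1, Csf1r) higher in the fibroblast (FB) libraries, while Tcf21, Pdgfra and Dcn overlap.

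Of 13086 genes with enough counts to test, among 19094 in the table, 1591 (12.2%) had higher levels in the cardiomyocyte libraries and 2264 (17.3%) lower levels, at an edgeR adjusted p under 0.05 in a fit with the mouse as a block. The largest differences lay on the lower side, where 481 called genes had a log2 fold change under −3, against 121 over 3 on the higher side. Without regard to the test, every cardiomyocyte value lay above every fibroblast value for 3174 genes (24.3%) and below for 3448 (26.3%). Each mouse carried weight in these counts. Without mouse 1 there were 1072 genes higher and 2007 lower, without mouse 2 there were 691 and 1426, and without mouse 3 there were 396 and 1316. Of the 3855 called genes, 2729, 2009 and 1684 were called again in these fits. The split depended on scaling. With nuclear library sizes and no TMM factors, 3275 genes were higher and 1626 lower, so that 66.8% of calls were on the higher side in place of 41.3%, and the median over all genes moved to 0.43. The p-values rest on how the cell type difference varied among these 3 mice, on 2 residual degrees of freedom. The variance estimates also borrow from other genes, with a median prior of 6.81 degrees of freedom. Mitochondrial share and nuclear depth moved with cell type, and their part in these counts was not tested. Unequal depth also sets what could be seen, since 45 of the genes called lower had 0 counts in all 3 cardiomyocyte columns, and 4 of those called higher had 0 in all 3 fibroblast columns.

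**Figure D2:**
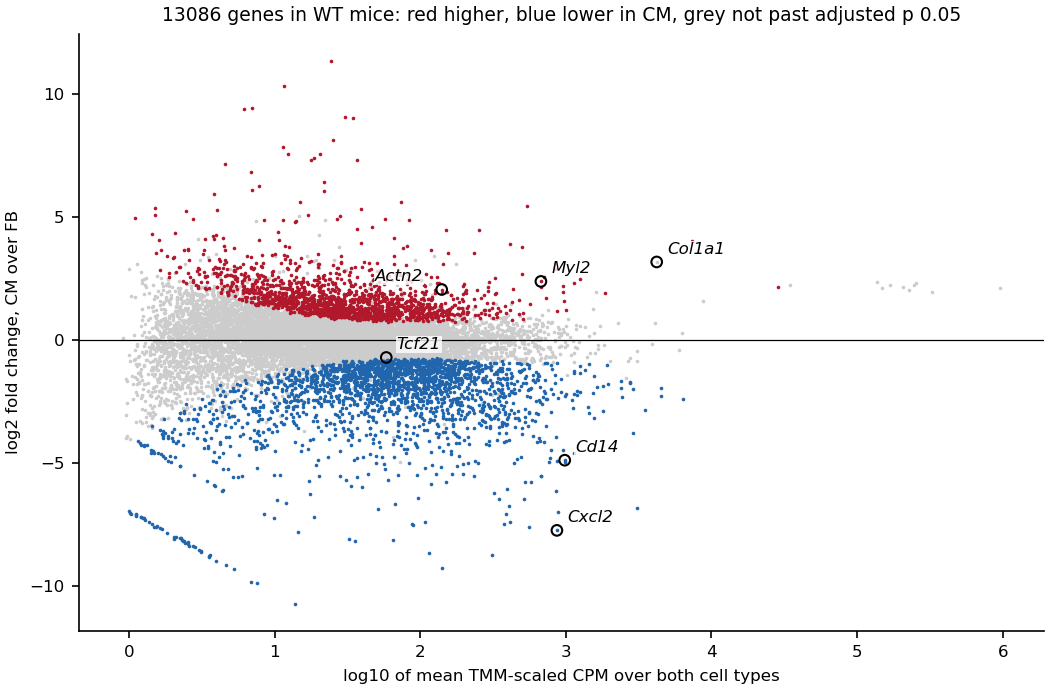
Each point is 1 of the 13086 genes in the wild-type mice, with its mean level over both cell types (log10 of TMM-scaled CPM) on the x axis and its log2 fold change, cardiomyocyte (CM) over fibroblast (FB), on the y axis. Genes higher in CM (1591, red) mostly lie under a log2 fold change of 3, those lower (2264, blue) reach below −8, and the points over 5 on the x axis are mitochondrially encoded.

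Genes of the contractile apparatus were higher in cardiomyocyte libraries almost throughout. Of 15 tested genes of the thick filament and M-band, 13 were higher and 0 lower, with a median log2 fold change of 2.11. Myom1, the myomesin that crosslinks thick filaments at the M-band, stood at 172, 178 and 176 against 45.3, 28.8 and 42 CPM (log2 fold change 2.21, SE 0.27, edgeR adjusted p 0.000743). Mylk3, the kinase that phosphorylates the ventricular light chain, stood at 88.4, 91.9 and 55.6 against 28.7, 14.1 and 11 CPM (log2 fold change 2.22, SE 0.31, edgeR adjusted p 0.00128). The cardiomyocyte levels of both genes were several times the fibroblast levels in each mouse. Myh6, the adult cardiac myosin heavy chain, was among the most abundant, at 1041, 1300 and 963 against 537, 239 and 274 CPM (log2 fold change 1.74, SE 0.36, edgeR adjusted p 0.00833), but fell short of the threshold without mouse 2 (0.0611) or mouse 3 (0.0796). Of 12 thin filament genes, 11 were higher and 0 lower, and the capping protein Tmod1 was the exception at 43.8, 34.9 and 39.8 against 49, 24.9 and 42.2 CPM. Lmod2, which lengthens actin filaments, stood at 60.4, 70.7 and 35.2 against 12.7, 9.54 and 8.91 CPM (log2 fold change 2.37, SE 0.31, edgeR adjusted p 0.000953), and the cardiac actin Actc1 at 1353, 1422 and 1876 against 508, 236 and 313 CPM (log2 fold change 2.20, SE 0.36, edgeR adjusted p 0.00288). The thin filament count was 11, 7 and 7 without mouse 1, 2 or 3, and the thick filament count 13, 10 and 9.

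At the Z-disc and costamere, 19 of 28 genes were higher and 0 lower, with a median of 1.87. The largest difference was that of Xirp2, an actin-binding protein of the intercalated disc, at 141, 121 and 161 against 18.6, 6.41 and 9.49 CPM (log2 fold change 3.74, SE 0.35, edgeR adjusted p 0.000243). Myoz2, which tethers calcineurin at the Z-disc, stood at 200.1, 245 and 161 against 53.5, 25.1 and 27.3 CPM (log2 fold change 2.58, SE 0.33, edgeR adjusted p 0.000868), and the mechanical stress reporter Ankrd1 at 152, 189 and 168 against 44, 25.1 and 26 CPM (log2 fold change 2.46, SE 0.31, edgeR adjusted p 0.000827). All 3 were called in each fit that left out a mouse. Not every adhesion gene followed, for Ilk, the integrin-linked kinase, stood at 111, 139.5 and 141 against 104, 107 and 114 CPM and the laminin chain Lama2 at 118, 182 and 57.1 against 74.8, 263 and 228 CPM (edgeR adjusted p 0.376, and 0.0463 without mouse 1). At the intercalated disc 4 of 11 genes were higher. Desmoplakin (Dsp), the desmosomal anchor for desmin, stood at 274, 276 and 213 against 44.4, 19 and 29.8 CPM (log2 fold change 3.10, SE 0.33, edgeR adjusted p 0.000384), and the cardiac cadherin Cdh2 at 71.8, 50.9 and 20.2 against 5.97, 5.96 and 4.99 CPM (log2 fold change 2.92, SE 0.39, edgeR adjusted p 0.00103). Gja1, the main gap junction protein of ventricular muscle, was not called, at 176, 122 and 109 against 131, 463 and 382 CPM (log2 fold change −1.14, SE 0.49, edgeR adjusted p 0.123, 0.00397 without mouse 1).

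Calcium handling genes were in part higher in cardiomyocyte libraries. Of 18 genes for calcium release and uptake 9 were higher and 0 lower, with a median of 0.99. Casq2, which stores calcium in the sarcoplasmic reticulum, stood at 91.6, 87.4 and 55.6 against 11.7, 11.4 and 8.91 CPM (log2 fold change 2.85, SE 0.27, edgeR adjusted p 0.000273). Phospholamban (Pln) stood at 508, 543 and 436 against 145, 72.2 and 85.5 CPM (log2 fold change 2.36, SE 0.32, edgeR adjusted p 0.00113) and the ryanodine receptor Ryr2 at 97.5, 72 and 70.3 against 21.6, 8.42 and 16 CPM (log2 fold change 2.46, SE 0.31, edgeR adjusted p 0.000799). For all 3 genes the cardiomyocyte values lay above the fibroblast values. Of 21 genes for ion channels and pumps, 10 were higher and 0 lower with all mice, and 6, 4 and 5 without mouse 1, 2 or 3.

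Signalling and transcription genes had calls on both sides. Over all genes tested 12.2% were higher and 17.3% lower, and the counts lower in the lists below lie near or below that share. Of 18 adrenergic and cAMP genes 7 were higher and 3 lower (5, 1 and 2 higher without mouse 1, 2 or 3). The protein kinase A catalytic subunit Prkaca stood at 225, 126 and 191 against 57.2, 54.5 and 59 CPM (log2 fold change 1.63, SE 0.27, edgeR adjusted p 0.00295), while the phosphodiesterase Pde4b was lower in cardiomyocyte libraries, at 37.5, 58.9 and 41.2 against 418, 592 and 541 CPM (log2 fold change −3.51, SE 0.29, edgeR adjusted p 0.000159). Of 24 cardiac transcription factors and cofactors 10 were higher and 3 lower (8, 1 and 4 higher and 3, 1 and 1 lower without mouse 1, 2 or 3). Mef2a, a MADS-box factor that is not confined to muscle, was lower at 122, 135 and 116 against 378, 289 and 375 CPM (log2 fold change −1.47, SE 0.27, edgeR adjusted p 0.00509). Nkx2-5, the cardiac homeobox factor, stood at 37.9, 22.7 and 17 against 12.9, 5.96 and 6.46 CPM (log2 fold change 1.62, SE 0.34, edgeR adjusted p 0.00872, 0.0685 without mouse 2). Among natriuretic peptides and stress-linked genes 7 of 10 were higher and 1 lower. Nppb, which encodes B-type natriuretic peptide, stood at 22.9, 32 and 15.3 against 3.2, 1.79 and 0.587 CPM (log2 fold change 3.81, SE 0.51, edgeR adjusted p 0.00109), whereas Nppa, its atrial relative, was not called (74.2, 79.1 and 18.5 against 93.3, 43.1 and 2.25 CPM). Rcan1, a feedback inhibitor of calcineurin, was the lower gene, at 58, 52.5 and 73.8 against 576, 479 and 446 CPM (log2 fold change −3.03, SE 0.30, edgeR adjusted p 0.000306). Bag3 itself, the co-chaperone mutated in the other genotype of the series, stood at 347, 131 and 116 CPM in the cardiomyocyte libraries of mice 1, 2 and 3 and 259, 470.2 and 392 CPM in the fibroblast libraries. These values overlapped (log2 fold change −1.08, SE 0.48, edgeR adjusted p 0.126), and without mouse 1 its log2 fold change was −1.84 with an edgeR adjusted p of 0.00471.

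Nuclear genes for oxidative phosphorylation were mostly higher in cardiomyocyte libraries, with lower list medians than the sarcomere lists. Of 36 complex I subunits 31 were higher and 0 lower, with a median log2 fold change of 1.22 (range 0.51 to 1.95). For all 36 the 3 cardiomyocyte values lay above the 3 fibroblast values, as they did for 24.3% of all genes tested. Ndufb9 stood at 142, 154 and 195 against 44.4, 40.6 and 41.4 CPM (log2 fold change 1.95, SE 0.26, edgeR adjusted p 0.00111). Of 40 subunits of complexes II to V 28 were higher and 0 lower, with a median of 1.03, and 36 did not overlap. Atp5g1, which encodes the proton-carrying c subunit of ATP synthase, stood at 399, 389.8 and 392 against 123, 86.6 and 81.1 CPM (log2 fold change 2.05, SE 0.28, edgeR adjusted p 0.00117). These counts fell when a mouse was left out, by an amount that depended on the mouse. For complex I they were 26, 11 and 7 without mouse 1, 2 or 3, and for complexes II to V 21, 9 and 6. Of the 13 mitochondrially encoded genes 2 were called higher, mt-Nd3 and mt-Nd6, although the list median was 2.16. Without mouse 1, whose fibroblast library had the high mitochondrial share, 11 were called higher, and without mouse 2 or 3 the count was 0.

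Fuel use followed in part. Of 27 genes for fatty acid uptake and oxidation 18 were higher and 1 lower, with counts higher of 16, 7 and 7 without mouse 1, 2 or 3. Fabp3, the heart fatty acid binding protein, stood at 462, 571 and 361 against 171, 82.8 and 102 CPM (log2 fold change 2.01, SE 0.34, edgeR adjusted p 0.00317), and Echs1, the hydratase of beta-oxidation, at 107, 67.2 and 64.9 against 29.2, 19.7 and 18.4 CPM (log2 fold change 1.82, SE 0.26, edgeR adjusted p 0.00138). Angptl4, a secreted inhibitor of lipoprotein lipase, was the lower member, with at most 2.88 CPM in a cardiomyocyte column and 17.9, 91.9 and 93.1 CPM in the fibroblast columns (log2 fold change −4.85, SE 0.38, edgeR adjusted p 0.000134). Of 26 citric acid cycle and pyruvate genes 16 were higher and 0 lower (11, 4 and 3 without mouse 1, 2 or 3). Idh3a, a subunit of the NAD-dependent isocitrate dehydrogenase, stood at 106, 109 and 112 against 33.1, 36.6 and 31.5 CPM (log2 fold change 1.69, SE 0.25, edgeR adjusted p 0.00179). Of 19 genes for ketone and branched-chain amino acid breakdown 7 were higher and 0 lower (5, 3 and 1), among them the ketone body enzyme Bdh1 at 31.6, 40.3 and 29.4 against 8.46, 6.64 and 7.14 CPM (log2 fold change 2.18, SE 0.34, edgeR adjusted p 0.00213). Glycolysis and glucose uptake went both ways, with 7 of 23 genes higher and 6 lower (6, 6 and 6 higher and 4, 3 and 3 lower without mouse 1, 2 or 3). Pfkfb3, which makes the activator of phosphofructokinase, was lower at 36.7, 45.1 and 57.1 against 349, 392 and 369 CPM (log2 fold change −3.02, SE 0.29, edgeR adjusted p 0.000252), as was hexokinase 2 (Hk2) at 74.2, 61.8 and 62.3 against 314, 588 and 489.6 CPM (log2 fold change −2.77, SE 0.33, edgeR adjusted p 0.00065). Ampd3, the erythrocyte form of AMP deaminase and a member of the creatine, adenylate and oxygen list, was also lower, at 20.5, 22.7 and 22.8 against 249.8, 195 and 268 CPM (log2 fold change −3.42, SE 0.28, edgeR adjusted p 0.000158).

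Paralog pairs were compared because many enzymes and structural proteins have a form typical of striated muscle and another of wider use. In 29 of 30 pairs both forms were tested. The muscle form was higher in 25 and lower in 1, Mef2a, which was listed as the muscle form though not confined to muscle. The other form was higher in 6 and lower in 4. Over all genes tested 12.2% were higher and 17.3% lower, and the count of other forms lower lies near or below that share. In the 6 pairs with the other form higher, both forms were higher. The other form had the larger log2 fold change for Actn1 (2.70, Actn2 2.06), Myl9 (2.68, Myl2 2.39), Ckmt1 and Pygb, and the smaller for Fabp5 and Kcnj8. The share of the muscle form, taken from levels per kilobase, was larger in every cardiomyocyte column than in every fibroblast column in 17 pairs. It was smaller in 2, those of Pygm and Mef2a. Such shares were not computed for other pairs of genes. For glucose transporters, the insulin-responsive Slc2a4 made up 82.0%, 39.5% and 25.2% of the pair with Slc2a1 in the cardiomyocyte columns and 8.39%, 2.82% and 2.34% in the fibroblast columns. Slc2a4 stood at 55.3, 26.6 and 17.9 against 8.25, 5.52 and 3.62 CPM (log2 fold change 2.44, SE 0.34, edgeR adjusted p 0.00131) and Slc2a1 at 12.2, 41 and 53.6 against 90.7, 192 and 152 CPM (log2 fold change −2.17, SE 0.32, edgeR adjusted p 0.00183). For lactate dehydrogenase, the heart form Ldhb made up 70.1%, 58.4% and 57.4% of the pair with Ldha against 30.4%, 13.3% and 15.5%. For phosphofructokinase, Pfkm made up 94.1%, 88.1% and 88.5% of the pair with Pfkp against 70.9%, 54.9% and 61.7%. The muscle share was highest in mouse 1 among the fibroblast columns of all 3 pairs. Cpt1a, the carnitine palmitoyltransferase of liver, was lower while its muscle partner Cpt1b was higher, giving shares of Cpt1b of 66.9%, 44.5% and 45.3% against 20.0%, 14.0% and 10.4%. Of the 4 lower partners Slc2a1 was called in each fit without a mouse. Pfkp was called in none (edgeR adjusted p 0.0819 to 0.0939), Ldha was lost without mouse 2 (0.134) or 3 (0.161), and Cpt1a was lost without mouse 1 (0.146) or 3 (0.177), as was Cpt1b without mouse 2 (0.0777). The subunit pairs of cytochrome c oxidase behaved alike in 2 of 3 cases, the shares of Cox7a1 and Cox8b not overlapping, whereas that of Cox6a2 did overlap. Creatine kinase Ckm made up 74.3%, 64.6% and 48.4% of the pair with the brain form Ckb against 42.6%, 21.7% and 29.2%.

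**Figure D3:**
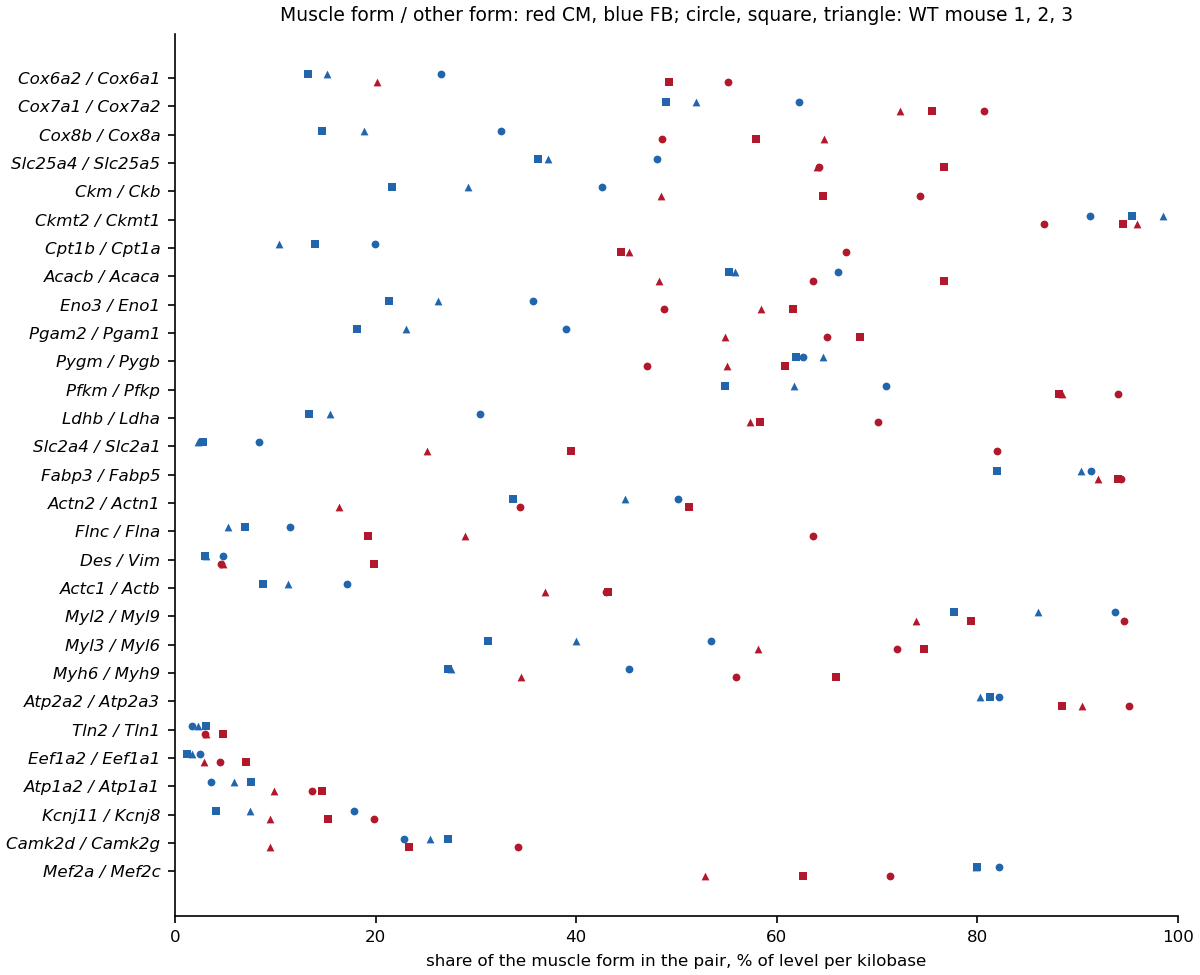
Share of the muscle form in 29 paralog pairs, in percent of the summed level per kilobase, with 1 point per mouse and cell type (red cardiomyocyte, CM; blue fibroblast, FB). The red points lie to the right of all blue points in 17 pairs, among them Slc2a4/Slc2a1 and Ldhb/Ldha. They lie to the left in 2, Pygm/Pygb and Mef2a/Mef2c, where Mef2a was listed as the muscle form though not confined to muscle.

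Markers of some other cell types of the heart differed as well. Among 14 markers of smooth muscle and pericytes, the cells of vessel walls, 11 were higher in cardiomyocyte libraries and 0 lower, with a median of 1.46, and the count was 8, 6 and 6 without mouse 1, 2 or 3. Their summed level was 1623 to 4722 CPM in cardiomyocyte and 677 to 1129 CPM in fibroblast columns. Tagln (SM22), an actin-binding protein of smooth muscle, stood at 158, 532 and 623 against 24.2, 46.1 and 30.5 CPM (log2 fold change 3.53, SE 0.38, edgeR adjusted p 0.000395), and smooth muscle myosin Myh11 at 55.6, 329 and 285 against 20.1, 51.4 and 42.6 CPM (log2 fold change 2.32, SE 0.33, edgeR adjusted p 0.00147). Mouse 1 had the lowest cardiomyocyte value of both. Acta2, the smooth muscle actin, varied widely between the cardiomyocyte libraries, at 137, 616 and 2105 against 32.2, 53.8 and 37.1 CPM (log2 fold change 3.78, SE 0.75, edgeR adjusted p 0.0121, 0.0581 without mouse 2). Skeletal alpha-actin (Acta1), the form of skeletal muscle, varied as widely, at 105, 547 and 2551 against 16.9, 7.98 and 17 CPM (log2 fold change 5.46, SE 1.10, edgeR adjusted p 0.0181, 0.0603 without mouse 2).

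Mesothelial genes, which mark the epicardial surface, were higher in cardiomyocyte libraries for 9 of 12 members and lower for 0 (9, 6 and 9 higher without mouse 1, 2 or 3, and Wt1 lower without mouse 1). The summed level was 489 to 1326 CPM against 168 to 342 CPM. The uroplakin Upk3b stood at 476, 357 and 151 against 109.5, 73.1 and 27.2 CPM (log2 fold change 2.29, SE 0.26, edgeR adjusted p 0.000555), the leucine-rich repeat protein Lrrn4 at 108, 96.3 and 36.6 against 18.8, 10.6 and 4.6 CPM (log2 fold change 2.89, SE 0.29, edgeR adjusted p 0.000307) and mesothelin (Msln) at 210.4, 181 and 109 against 59, 37.4 and 11.5 CPM (log2 fold change 2.43, SE 0.33, edgeR adjusted p 0.00118). In all 3 genes, mouse 3 had the lowest value in both cell types. Wt1, an epicardial transcription factor, did not follow, at 32.8, 30.7 and 19.3 against 36.7, 70.6 and 85.2 CPM (log2 fold change −1.17, SE 0.39, edgeR adjusted p 0.0515). The list thus held members that did not move together. Of 15 endothelial markers 0 were higher and 2 lower with edgeR, with a median of 0.24, where 17.3% of all genes tested were lower. The tight junction protein Cldn5 stood at 124, 107 and 95.7 against 223, 759.9 and 794 CPM (log2 fold change −2.27, SE 0.47, edgeR adjusted p 0.00974, 0.000676 without mouse 1 but not called without mouse 2 or 3).

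Matrix genes were mostly not called. Of 22 collagens and basement membrane genes 0 were called in either direction in the edgeR fit to all 3 mice, with a median of 0.03, and 4 (Col1a1, Col1a2, Col5a1 and Col12a1) were higher without mouse 2, while 2 (Col14a1 and Lama2) were lower without mouse 1. Of 28 matricellular proteins and matrix enzymes 1 was higher and 8 lower (0, 3 and 0 higher and 11, 6 and 6 lower without mouse 1, 2 or 3). Fibronectin (Fn1) was the higher one, at 6128, 645 and 2495 against 838, 506 and 451 CPM, where the groups overlap (log2 fold change 1.93, SE 0.53, edgeR adjusted p 0.0285, 0.126 without mouse 1 and 0.2 without mouse 3). The urokinase receptor Plaur was lower, at 10.7, 19.2 and 6.92 against 351, 372 and 420.0 CPM (log2 fold change −5.05, SE 0.40, edgeR adjusted p 0.000134), as were the urokinase Plau itself, at 18.5, 34.9 and 33.7 against 750.0, 387 and 568 CPM (log2 fold change −4.27, SE 0.42, edgeR adjusted p 0.000303), and collagenase 3 (Mmp13), at 3.95, 5.44 and 4.61 against 239, 94.4 and 152 CPM (log2 fold change −4.99, SE 0.40, edgeR adjusted p 0.000145). For these 3 genes the lowest fibroblast value lay far above the highest cardiomyocyte value. In the TGF-beta response 4 of 16 genes were higher and 5 lower (1, 2 and 2 higher and 8, 4 and 4 lower without mouse 1, 2 or 3). Ctgf, a matricellular target, stood at 456, 496 and 3759 against 90.1, 161 and 125 CPM (log2 fold change 2.89, SE 0.67, edgeR adjusted p 0.0184, 0.0819 without mouse 1), with mouse 3 far above the others. The ligand Tgfb1 stood at 136, 155 and 133 against 633, 659 and 715 CPM (log2 fold change −2.24, SE 0.28, edgeR adjusted p 0.000858), and Skil, a repressor of its signalling, at 56, 59.9 and 36.9 against 541, 443 and 486 CPM (log2 fold change −3.29, SE 0.31, edgeR adjusted p 0.000245).

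Of all 54 lists, those of interleukins, chemokines and Toll-like receptor signalling had the lowest medians. Of 21 chemokines 18 were lower in cardiomyocyte libraries and 1 higher, with a median log2 fold change of −4.01. Cxcl2, a neutrophil chemoattractant, stood at 16.2, 4.16 and 6.92 CPM in the cardiomyocyte libraries of mice 1, 2 and 3 and 2168, 1414 and 1598 CPM in the fibroblast libraries (log2 fold change −7.73, SE 0.45, edgeR adjusted p 6.16e-05). Cxcl10, which draws T cells and is induced by interferon, stood at 3.16, 3.84 and 7.5 against 1051, 667 and 751 CPM (log2 fold change −7.40, SE 0.46, edgeR adjusted p 7.15e-05), and Ccl4, a macrophage inflammatory protein, at 12.6, 3.84 and 3.17 against 1554, 762 and 1033 CPM (log2 fold change −7.58, SE 0.44, edgeR adjusted p 6.16e-05). The highest cardiomyocyte value of the 3 genes was 16.2 CPM and the lowest fibroblast value 667 CPM. Cxcl12, a chemokine made by stromal cells, was the higher one, at 290.5, 566 and 525 against 127, 271 and 242 CPM (log2 fold change 1.12, SE 0.26, edgeR adjusted p 0.014), but was not called in any fit without a mouse. Without mouse 2 the count of lower chemokines was 13.

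Of 26 interleukins, TNF family members and growth factors 20 were lower and 0 higher, with a median of −4.37, or −4.07 with Csf2, which had 0 counts in all cardiomyocyte columns, at its lower bound. Il1rn, the natural antagonist of the interleukin 1 receptor, stood at 2.37, 0.96 and 1.15 against 849.7, 509.7 and 512 CPM (log2 fold change −8.73, SE 0.40, edgeR adjusted p 4.53e-05), and Il1b, the cytokine it opposes, at 7.1, 6.08 and 3.46 against 287, 316 and 276 CPM (log2 fold change −5.77, SE 0.35, edgeR adjusted p 6.16e-05). Tnf stood at 2.76, 8 and 2.31 against 966, 508 and 768 CPM (log2 fold change −7.46, SE 0.60, edgeR adjusted p 0.000196). Both an inflammatory cytokine and its antagonist were therefore on the same side. The anti-inflammatory Il10 was at 0, 0.32 and 0.288 CPM against 74.9, 52.8 and 64.9 CPM. Of 30 genes for Toll-like receptors and NF-kB feedback 28 were lower and 0 higher, with a median of −3.36, and 28 were lower in each fit without a mouse. The receptor Tlr2 stood at 21.3, 34.6 and 30.6 against 1569, 1140 and 1226 CPM (log2 fold change −5.51, SE 0.39, edgeR adjusted p 8.75e-05), the NF-kB subunit Rel at 12.2, 15.4 and 10.1 against 346, 264 and 321 CPM (log2 fold change −4.63, SE 0.32, edgeR adjusted p 8.37e-05), and Tnfaip3 (A20), a deubiquitinase that switches the pathway off, at 43.4, 20.5 and 20.8 against 965, 711 and 869.9 CPM (log2 fold change −4.99, SE 0.35, edgeR adjusted p 8.74e-05). Tlr4, the lipopolysaccharide receptor, was an exception, at 19.7, 33.9 and 11.8 against 24, 24.1 and 26.4 CPM (log2 fold change −0.30, SE 0.38, edgeR adjusted p 0.589).

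Interferon-response genes were lower for 18 of 19 members, with a median of −2.73. Rsad2 (viperin), an antiviral enzyme, stood at 35.5, 79.7 and 50.2 against 2436, 1055 and 1536 CPM (log2 fold change −4.91, SE 0.52, edgeR adjusted p 0.000477), and Ifit1, which binds foreign RNA, at 20.9, 49 and 21.6 against 654, 389.7 and 569 CPM (log2 fold change −4.22, SE 0.46, edgeR adjusted p 0.000512). Isg15, a ubiquitin-like modifier, stood at 13, 36.8 and 31.7 against 209.9, 172 and 146 CPM (log2 fold change −2.76, SE 0.40, edgeR adjusted p 0.00199). Of 17 inflammasome and lipid mediator genes 11 were lower. The sensor Nlrp3 stood at 6.31, 6.4 and 8.94 against 1130, 558 and 729 CPM (log2 fold change −6.74, SE 0.41, edgeR adjusted p 6.16e-05), and Acod1, which makes itaconate in activated macrophages, at 0, 0.32 and 0.865 against 346, 269 and 237 CPM, with 4 counts in all in the cardiomyocyte columns (edgeR adjusted p 6.16e-05). Of 17 antigen presentation genes 15 were lower (14, 12 and 10 without mouse 1, 2 or 3). The class II chain H2-Ab1 stood at 343, 557 and 428 against 3261, 3375 and 2849 CPM (log2 fold change −2.86, SE 0.34, edgeR adjusted p 0.000654), and Cd86, which costimulates T cells, at 11.1, 30.7 and 18.5 against 437, 287 and 317 CPM (log2 fold change −4.16, SE 0.43, edgeR adjusted p 0.000404). Of 19 complement and Fc receptor genes 13 were lower and 1 higher. The anaphylatoxin receptor C5ar1 stood at 58, 88 and 60.8 against 1331, 1025 and 1230 CPM (log2 fold change −4.13, SE 0.36, edgeR adjusted p 0.000179). The macrophage markers, 17 of 18 lower, had a summed level of 2919 to 4838 CPM in cardiomyocyte and 16536 to 20380 CPM in fibroblast columns, and their part in these differences was not tested. The Toll-like receptor list shares Cd14 with them, and the complement list Fcgr1 and the 3 C1q chains.

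Promoters of 4 of these genes, picked from their lists because they hold a motif of the factors that drive such genes, are shown so that the motifs can be read directly. They are the 250 bases before the annotated start in RefSeq (GRCm38.p6), in lower case with matches to either motif in capitals, 5′ to 3′ on the strand of the gene. The NF-kB motif was searched as GGGNNNTTCC and the interferon-stimulated response element as GAAANNGAAA, each on both strands, and overlapping matches run together in capitals. Cxcl2 lies at chr5:90903649-90903898 (plus strand), Cxcl10 at chr5:92348890-92349139 (minus strand), Ifit1 at chr19:34640639-34640888 (plus strand) and Isg15 at chr4:156200819-156201068 (minus strand).
Cxcl2: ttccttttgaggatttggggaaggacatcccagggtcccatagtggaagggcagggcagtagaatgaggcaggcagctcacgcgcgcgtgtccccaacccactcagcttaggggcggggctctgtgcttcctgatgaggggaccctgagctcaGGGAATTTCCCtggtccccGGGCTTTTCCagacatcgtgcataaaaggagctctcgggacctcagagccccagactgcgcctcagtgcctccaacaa
Cxcl10: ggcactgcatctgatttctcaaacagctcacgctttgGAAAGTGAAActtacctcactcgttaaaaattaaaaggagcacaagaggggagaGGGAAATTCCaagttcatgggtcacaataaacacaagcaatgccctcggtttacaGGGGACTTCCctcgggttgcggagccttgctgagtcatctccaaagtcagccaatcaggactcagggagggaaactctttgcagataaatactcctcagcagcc
Ifit1: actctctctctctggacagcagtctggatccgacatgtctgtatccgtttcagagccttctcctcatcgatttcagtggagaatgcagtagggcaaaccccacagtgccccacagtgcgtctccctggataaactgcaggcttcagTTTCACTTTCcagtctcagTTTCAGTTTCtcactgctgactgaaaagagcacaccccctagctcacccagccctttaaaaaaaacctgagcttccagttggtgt
Isg15: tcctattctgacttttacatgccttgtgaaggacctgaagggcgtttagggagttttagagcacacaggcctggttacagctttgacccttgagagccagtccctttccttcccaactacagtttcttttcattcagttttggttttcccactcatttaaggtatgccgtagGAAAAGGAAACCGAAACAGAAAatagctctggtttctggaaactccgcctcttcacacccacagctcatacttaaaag
Cxcl2 held 3 NF-kB matches, the farthest beginning 97 bases before the start, and Cxcl10 held 2 and 1 response element, which begins 213 bases before the start. Ifit1 held 2 response elements and Isg15 held 3 that overlap. The NF-kB letters were in 6.09% of the 9827 promoters of tested genes. They were in 5 of 14 chemokine promoters and 8 of 22 promoters of the Toll-like receptor and NF-kB list. The response element was in 3.31% of all promoters and in 9 of 16 promoters of the interferon list. Among promoters of all genes called lower, the shares were 7.72% and 5.28%, and among those called higher 5.83% and 2.20%. A match describes letters, not a site in use.

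Genes switched on within minutes of a stimulus were also lower in cardiomyocyte libraries in most cases. Of 25 immediate early genes 18 were lower and 0 higher, with a median of −2.26. The nuclear receptor Nr4a3 stood at 6.31, 11.8 and 11.2 against 309.9, 610.2 and 445 CPM (log2 fold change −5.53, SE 0.32, edgeR adjusted p 6.16e-05), the stress factor Atf3 at 77.8, 30.1 and 11.5 against 1162, 769.7 and 739 CPM (log2 fold change −4.82, SE 0.47, edgeR adjusted p 0.000293), and the AP-1 member Fosl2 at 128, 159.7 and 148 against 967, 1361 and 1129 CPM (log2 fold change −2.98, SE 0.30, edgeR adjusted p 0.000314). Other members were not called, with Fos at 586, 320.4 and 189 against 508, 456 and 512 CPM, Jun at 918, 658 and 479 against 855, 873 and 1068 CPM and Egr1 at 650.4, 829 and 321 against 883, 1105 and 1107 CPM. Fos and Jun were abundant in the libraries of both labels and overlapped. In the list for unfolded protein and integrated stress signalling, 15 of 23 genes were lower and 0 higher. The stress cytokine Gdf15 stood at 7.5, 7.04 and 3.46 against 739.8, 751 and 824 CPM (log2 fold change −7.05, SE 0.42, edgeR adjusted p 6.16e-05), and the phosphatase regulator Ppp1r15a (GADD34) at 86, 72.3 and 45.3 against 741, 640.4 and 659 CPM (log2 fold change −3.37, SE 0.32, edgeR adjusted p 0.000252).

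Of 21 genes of oxidative stress and metal response 14 were lower and 0 higher, with a median of −2.21. Heme oxygenase 1 (Hmox1), which degrades heme, stood at 36.3, 70.1 and 60.8 CPM in the cardiomyocyte libraries of mice 1, 2 and 3 and 6671, 6132 and 5446 CPM in the fibroblast libraries (log2 fold change −6.81, SE 0.47, edgeR adjusted p 8.37e-05). It was among the 10 most abundant nuclear genes of the fibroblast libraries. The ferritin chains Ftl1, at 1921, 2339 and 1849 against 10916, 11014 and 10068 CPM (log2 fold change −2.40, SE 0.38, edgeR adjusted p 0.00258), and Fth1, at 2023, 1693 and 1095 against 8371, 7372 and 6545 CPM (log2 fold change −2.25, SE 0.37, edgeR adjusted p 0.00277), store the iron that heme breakdown frees. The macrophage markers moved the same way as this list, as did the erythroid and platelet markers, with 8 of 10 lower, a median of −1.93 and summed levels of 1194 to 8314 CPM in cardiomyocyte columns and 3355 to 15129 CPM in fibroblast columns. The part of either list in it was not tested. Sulfiredoxin (Srxn1), which repairs oxidised peroxiredoxins, stood at 26.4, 39 and 21.9 against 1037, 1614 and 1311 CPM (log2 fold change −5.52, SE 0.36, edgeR adjusted p 7.51e-05). Enzymes that remove superoxide and peroxide in most cells were not called, with log2 fold changes of −0.10 for Sod1 and 0.57 for Gpx1. The AP-1 motif TGANTCA, bound by dimers of Fos and Jun family proteins and searched on both strands, was in 10.0% of promoters of lower genes, 4.73% of those of higher genes and 5.77% of all. The Srxn1 promoter, at chr2:152105274-152105523 (plus strand), is shown because it held 2 matches, in capitals.
Srxn1: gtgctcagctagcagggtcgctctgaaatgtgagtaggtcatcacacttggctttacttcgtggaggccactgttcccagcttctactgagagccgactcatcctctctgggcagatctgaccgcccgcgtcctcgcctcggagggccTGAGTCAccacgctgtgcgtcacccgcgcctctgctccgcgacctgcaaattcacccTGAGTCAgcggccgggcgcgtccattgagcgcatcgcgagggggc
The serum response factor motif (CArG box) was in 1.48% of all promoters, 2.20% of those of higher genes and 1.74% of those of lower genes. It was in 2 of 10 promoters of thin filament genes, 2 of 13 of thick filament genes and 2 of 20 of immediate early genes. The MEF2 motif CTANNNNTAG was in 3.26% of all promoters. It was in 0 of 10, 3 of 13 and 4 of 20 promoters of these lists. The Actc1 promoter, at chr2:114052876-114053125 (minus strand), held 1 CArG match, beginning 47 bases before the start.
Actc1: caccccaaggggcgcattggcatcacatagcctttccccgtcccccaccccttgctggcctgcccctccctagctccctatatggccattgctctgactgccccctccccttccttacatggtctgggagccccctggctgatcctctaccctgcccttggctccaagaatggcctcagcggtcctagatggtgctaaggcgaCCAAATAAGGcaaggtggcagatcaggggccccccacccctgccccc

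In the heat shock and BAG3 chaperone list 7 of 23 protein quality control genes were higher, 5 lower and 11 not called, with a median of −0.20, beside 12.2% higher and 17.3% lower over all genes. The higher ones were the small heat shock proteins Hspb2, Hspb6, Hspb7, Hspb8 and Cryab, the ubiquitin ligase Stub1 and the adaptor Synpo2. AlphaB-crystallin (Cryab) stood at 307, 277 and 179 against 116, 67 and 60.4 CPM (log2 fold change 1.67, SE 0.27, edgeR adjusted p 0.00254), Hspb7 at 335, 374 and 251 against 93, 50.3 and 69.1 CPM (log2 fold change 2.20, SE 0.31, edgeR adjusted p 0.00148) and the Z-disc adaptor Synpo2 at 61.2, 82.6 and 53.3 against 16.1, 25.9 and 19.6 CPM (log2 fold change 1.68, SE 0.27, edgeR adjusted p 0.00248). The lower ones were Hsp70 and Hsp40 family members, among them Dnajb6 at 81.7, 79.1 and 79 against 191, 264 and 226 CPM (log2 fold change −1.49, SE 0.26, edgeR adjusted p 0.00362). Without mouse 2 or 3, Dnajb6 was the only lower call in this list, and the higher calls were 6, 5 and 4 without mouse 1, 2 or 3. Of 24 autophagy and lysosome genes 13 were lower and 2 higher. The count lower was 8, 7 and 6 without mouse 1, 2 or 3, and the count higher was 0 each time. The autophagy receptor p62 (Sqstm1) stood at 382, 415 and 372 against 4940, 5741 and 5510 CPM (log2 fold change −3.79, SE 0.36, edgeR adjusted p 0.000252), and the lysosomal protease Ctsz at 179, 219 and 163 against 937, 883 and 891 CPM (log2 fold change −2.28, SE 0.29, edgeR adjusted p 0.00093). The core autophagy genes Atg5, Atg7 and Becn1 were not called.

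Of 20 p53 targets and cell death genes 13 were lower and 3 higher. The cell cycle inhibitor p21 (Cdkn1a) stood at 205, 126 and 109.6 against 961, 1167 and 1157 CPM (log2 fold change −2.95, SE 0.35, edgeR adjusted p 0.000662), the p53 inhibitor Mdm2 at 35.1, 48.3 and 39.8 against 258, 180.3 and 215 CPM (log2 fold change −2.40, SE 0.29, edgeR adjusted p 0.000704) and Gadd45b at 14.6, 17 and 13.8 against 494, 484 and 401 CPM (log2 fold change −4.92, SE 0.31, edgeR adjusted p 7.15e-05). Phlda3, an inhibitor of Akt, went the other way, at 123, 172 and 386 against 30.4, 38.9 and 31.1 CPM (log2 fold change 2.59, SE 0.37, edgeR adjusted p 0.00158), as did cyclin G1 (Ccng1), at 213, 234 and 313 against 80.8, 58.3 and 74.9 CPM (log2 fold change 1.82, SE 0.27, edgeR adjusted p 0.00183). Targets of the same factor thus lay on both sides. Of 24 cell cycle genes 7 were higher and 2 lower. The replication clamp Pcna, which has near-identical copies, was lower, at 51.3, 63.1 and 87.9 against 317, 339.9 and 336 CPM (log2 fold change −2.33, SE 0.28, edgeR adjusted p 0.000692), while the helicase subunit Mcm5, at 76.6, 44.5 and 73.8 against 17, 20.1 and 22.8 CPM (log2 fold change 1.67, SE 0.30, edgeR adjusted p 0.00418), and topoisomerase Top2a, at 77, 33.9 and 60.8 against 14.2, 14.5 and 23.9 CPM (log2 fold change 1.67, SE 0.33, edgeR adjusted p 0.0064), were higher. The count higher was 5, 7 and 2 without mouse 1, 2 or 3, and the count lower 1, 1 and 2. Of 16 clock genes 6 were lower and 0 higher (5, 3 and 4 lower without mouse 1, 2 or 3). The repressor Bhlhe40 stood at 80.1, 121 and 57.1 against 347, 735 and 624 CPM (log2 fold change −2.72, SE 0.35, edgeR adjusted p 0.000869), and the core activators Arntl and Clock were not called (−0.15 and −0.09).

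Among blood cell markers, 8 of 10 tested erythroid and platelet genes were lower and 0 higher (4 without mouse 3). The platelet chemokine Pf4, which some resident macrophages also express, stood at 57.6, 119 and 138 against 603, 529 and 464 CPM (log2 fold change −2.41, SE 0.37, edgeR adjusted p 0.00224). Of 13 markers of T, B and NK cells 3 were lower (2, 2 and 1 without mouse 1, 2 or 3), and of 12 monocyte and dendritic cell markers 4 (2, 2 and 1). Of 10 neutrophil and mast cell markers 2 were lower, Mmp9 and Csf3r. No Schwann cell or neuron marker (6 tested) and no adipocyte marker (1 tested) was called by edgeR. Of 14 lung epithelial genes only 5 were tested, of which 4 were higher and 1 lower, and 0 were called without mouse 2 or 3. Sftpc, surfactant protein C, stood at 4.74, 5.44 and 12.1 against 0.996, 0 and 0.391 CPM. Of 12 thyroid and skeletal muscle genes only 3 were tested, and 2 were higher, Acta1 and Actn3. In these lists a gene could pass the count filter through 1 cell type alone, so the counts do not describe the lists. In the atrial and conduction list 2 of 12 were higher (2, 1 and 0 without mouse 1, 2 or 3). In the endocardial and lymphatic list 1 was higher and 2 lower of 12 (0 and 1 without mouse 2 or 3). Of 16 sterol synthesis genes 1 was higher and 2 lower, and of 19 genes for translation initiation and aminoacyl-tRNA synthetases 2 were higher and 7 lower (9, 4 and 5 lower without mouse 1, 2 or 3). Over all genes tested 12.2% were higher and 17.3% lower, and the neutrophil, atrial, endocardial and sterol counts lie near or below these shares. In the creatine, adenylate and oxygen list 6 of 12 were higher and 1 lower (3 higher without mouse 3). Housekeeping genes gave a range for comparison, with 2 of 13 lower and 0 higher (Gusb and B2m, both lost without mouse 3), Gapdh at −0.22 and Actb at −0.15 on the log2 scale, which turned to 0.18 and 0.25 without TMM factors.

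**Figure D4:**
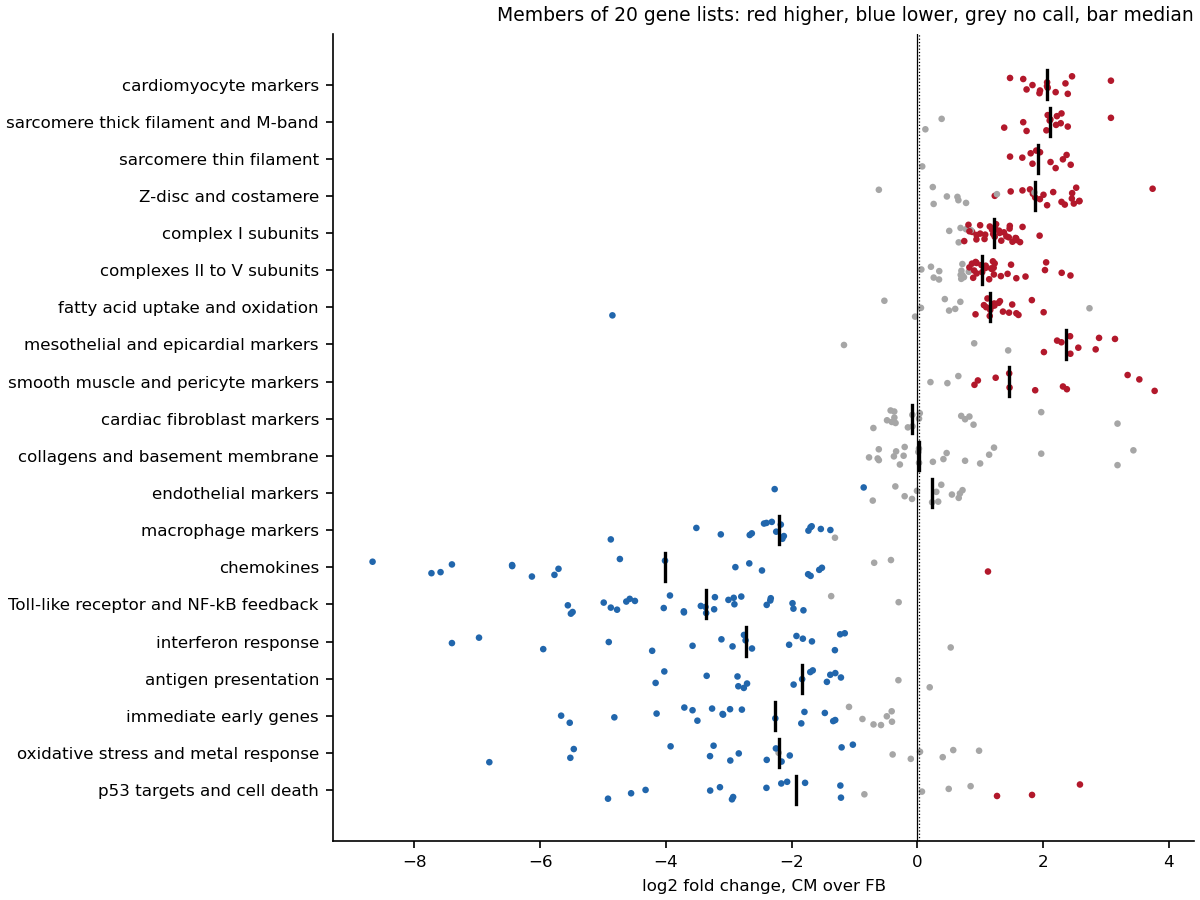
Log2 fold change, cardiomyocyte (CM) over fibroblast (FB), of every tested member of 20 gene lists, with red for genes called higher, blue for lower, grey for the rest and a black bar at the list median. Contractile and respiratory lists lie to the right of 0, macrophage and inflammatory lists to the left (medians −2.21 for macrophage markers and −4.01 for chemokines), and fibroblast markers and collagens around 0.

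The largest differences on the higher side were of another kind. Among the 12 genes with the largest log2 fold change, named by a rule that asked for a mean of at least 10 CPM and no overlap, none was a sarcomere gene. The rule left out predicted genes (Gm followed by digits), names ending in Rik and genes of the Y chromosome. RP24-399H1.2, which the table names by its clone, stood at 16.2, 20.5 and 110.1 CPM with 0 counts in all 3 fibroblast columns, at least 200.9-fold higher with a floor of 3 counts in each fibroblast column. Several carry copies of other genes. Csl, a copy of the citrate synthase gene Cs at chr10:99757706-99759658 (GRCm38), stood at 15.8, 7.04 and 46.4 CPM in cardiomyocyte columns and had 0 counts in all 3 fibroblast columns. That makes it at least 94.8-fold higher, taking 3 counts in each fibroblast column as the floor. Aldoart2, a copy of the aldolase gene Aldoa at chr12:55565239-55566896, stood at 154, 10.2 and 44.4 against 0.356, 0 and 0 CPM (log2 fold change 9.05, SE 0.54, edgeR adjusted p 6.16e-05), and Rpl10l, a copy of the ribosomal gene Rpl10 at chr12:66283379-66284401, at 50.9, 15.7 and 84.2 against 0.356, 0 and 0.0979 CPM (log2 fold change 8.15, SE 0.59, edgeR adjusted p 9.69e-05). Csl, Aldoart2 and Rpl10l each have a single exon in the annotation. The parent genes had log2 fold changes of 0.24 (Aldoa), 0.91 (Rpl10) and 0.84 (Cs). Aldoart2 reached 14.2%, 1.32% and 7.23% of the Aldoa level in cardiomyocyte columns and 0.0557%, 0% and 0% in fibroblast columns. Counts of such near-identical copies are uncertain, because estimated counts can be split between copy and parent. Pcna-ps2, a copy of Pcna, was also among the 12.

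Of the others among the 12, En1, Hoxc8 and Grem1 act in embryonic patterning. The homeobox gene En1 stood at 48.9, 1.92 and 133 against 0.213, 0 and 0 CPM, with 3 counts in all in the fibroblast columns (edgeR adjusted p 0.000159), Hoxc8 at 77.4, 6.72 and 38.1 against 0.498, 0.0746 and 0 CPM (log2 fold change 7.59, SE 0.64, edgeR adjusted p 0.000159), and the BMP antagonist Grem1 at 32.4, 8 and 66.6 against 0.427, 0.0746 and 0 CPM (log2 fold change 7.34, SE 0.78, edgeR adjusted p 0.000526). In each of them mouse 2 had the lowest cardiomyocyte value. Summed over the 38 Hox genes of the table, the level was 350, 58.6 and 265 CPM in cardiomyocyte columns and 35.6, 48.4 and 65.2 CPM in fibroblast columns. Of the 11 tested, 5 were higher, beside 12.2% of all genes tested. Genes near 0 in the fibroblast columns could pass the count filter only through the cardiomyocyte columns, so this count does not describe the family. Mouse 2 also had the lowest Col1a1, Fn1 and Vim among the cardiomyocyte columns. The intermediate filament gene Vim stood at 7477, 1867 and 6731 against 2620, 2745 and 3169 CPM.

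On the lower side, 5 of the 12 genes belong to the chemokine, interleukin and inflammasome lists (Cxcl2, Cxcl3, Il1rn, Il10 and Acod1). Gpr84, a receptor for medium-chain fatty acids on macrophages, stood at 36.6, 27.9 and 18.8 CPM in fibroblast columns and had 0 counts in all cardiomyocyte columns, which makes it at least 27.7-fold lower there. The transcription factor Tfec, at 15.1, 14.3 and 15.9 CPM, was at least 15.1-fold lower. Floors were again 3 counts in each column. Ifnb1, which encodes interferon beta, stood at 0.395, 0.32 and 0 against 105, 31.8 and 77.2 CPM, with 2 counts in all in the cardiomyocyte columns (edgeR adjusted p 8.5e-05). The growth factor amphiregulin (Areg) stood at 0.395, 0.96 and 0 against 179, 104 and 108 CPM, with 4 counts in all in the cardiomyocyte columns (edgeR adjusted p 8.37e-05).

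By abundance, the libraries also differed in their leading nuclear genes. In the cardiomyocyte columns these 10 included Col1a1, Vim, Fn1 and Col1a2 beside the elongation factors Eef1a1 and Eef2, and no sarcomere gene. In the fibroblast columns they included Apoe, at 1757, 2584 and 1422 against 8201, 7022 and 6081 CPM (log2 fold change −1.92, SE 0.37, edgeR adjusted p 0.00614, 0.0661 without mouse 3), Cd74, the invariant chain of class II presentation, at 778, 1210 and 651 against 6579, 6242 and 5554 CPM (log2 fold change −2.85, SE 0.37, edgeR adjusted p 0.000993), and Sqstm1. Gelsolin (Gsn), an actin-severing protein abundant in cardiac fibroblasts, was among the leading genes of both, at 5193, 6051 and 3219 against 2899, 11866 and 6586 CPM.

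**Figure D5:**
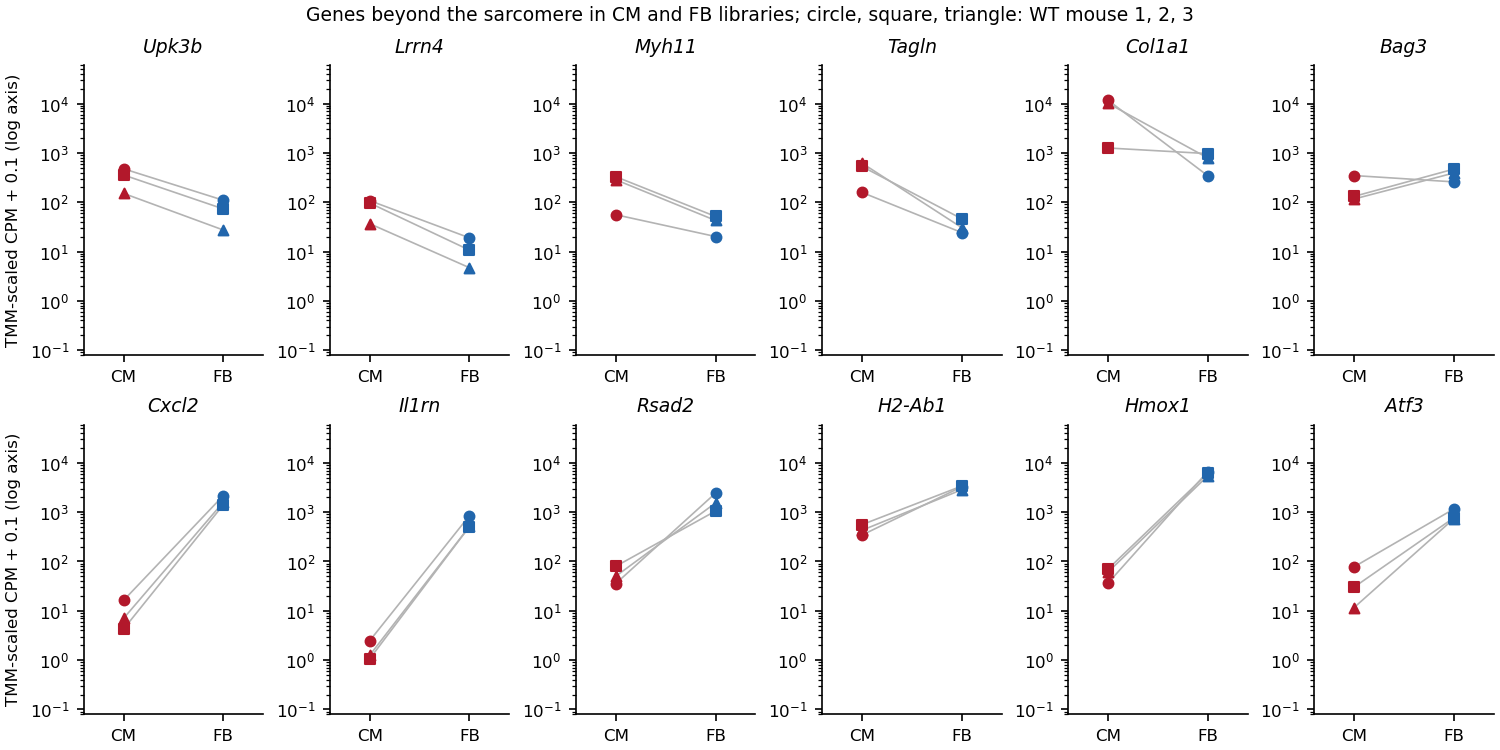
Levels of 12 genes that are not sarcomere genes, in TMM-scaled CPM plus 0.1 on a log axis, 1 point per mouse and cell type, with a line joining both libraries of a mouse. The mesothelial and smooth muscle genes Upk3b, Lrrn4, Myh11 and Tagln lie higher in cardiomyocyte (CM) libraries in every mouse, Bag3 overlaps, and Cxcl2, Il1rn, Rsad2, H2-Ab1, Hmox1 and Atf3 lie lower in every mouse. Col1a1 in mouse 2 is close between the cell types.

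Whether these cell type differences depended on genotype was tested in one fit with the Tg+ mice. Of 14236 genes, 0 had a difference between cell types that itself differed between WT and Tg+ mice with edgeR, where 137 had an unadjusted p under 0.05, and 0 did with limma voom (161 unadjusted). DESeq2 called 1, the RNA helicase gene Dhx35 (178 unadjusted), which in WT mice stood at 0, 0.64 and 0.288 against 10.5, 4.77 and 10.4 CPM, with 3 counts in all in the cardiomyocyte columns (edgeR adjusted p 0.00654, 0.0524 without mouse 3). Without any difference, a share of 0.05 of the genes would be expected under an unadjusted p of 0.05, and each of these counts lay well below that. The tests were thus conservative here, and why was not tested. With 3 mice per genotype, a p that misses the threshold does not show that the differences were alike.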

How the data were processed

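The authors deposited estimated counts for each gene, and 44.7% of these are not whole numbers. The build is GRCm38.p6 per the submitters' processing notes, which also list R 3.4.4, DESeq2 1.18.1 and kallisto 0.44.0 without saying what each did. A second deposited table held a normalized signal derived by the authors from the same libraries, and it was not used. Estimated counts were rounded after the rep1 and rep2 cardiomyocyte libraries of each mouse were summed. Cell types were compared with edgeR 4.0.16 (R 4.3.3) by the robust quasi-likelihood test, with library sizes and TMM factors from nuclear genes, the filterByExpr filter and the mouse as a block. The pairing comes from the animal codes in the titles, which both cell types of a mouse share. The 6 columns leave 2 residual degrees of freedom. P-values were adjusted by Benjamini-Hochberg over all tested genes. The model was tested on simulated data. Levels per kilobase used exon lengths of the GENCODE annotation, and promoters came from RefSeq. The members and the 54 gene lists were chosen with earlier results of these data known. Named genes were the 12 with the largest change in each direction (mean of at least 10 CPM, no overlap), the 10 most abundant, and marker and paralog genes. Predicted genes (Gm followed by digits), names ending in Rik and genes of the Y chromosome were left out of the 12. Up to 4 members per list and direction with the lowest p were also named. Others were chosen after their values were seen, such as Egr1, Fos, Gja1, Ilk, Jun, Lama2, Nppa, Sod1 and Tlr4. Limma voom 3.58.1, DESeq2 1.42.0, other scalings and filters, single repeats and leaving out a mouse were tried as alternatives.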

Additional observations from a re-analysis of the deposited data

Results flagged for a closer look

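Dhx35, which encodes an RNA helicase, went in opposite directions in the mice of each genotype. In WT mice 1, 2 and 3 its counts were 0, 2 and 1 in the cardiomyocyte columns and 148, 64 and 106 in the fibroblast columns. In Tg+ mice 1, 2 and 3 they were 123, 96 and 55 in the cardiomyocyte columns and 138, 145 and 31 in the fibroblast columns. On the scale of log2 of CPM plus 1, without TMM factors, the cardiomyocyte column was lower in 3 of 3 WT mice and higher in 3 of 3 Tg+ mice. The mean difference in WT minus that in Tg+ mice was −4.05. The edgeR test of this difference gave a log2 value of −5.85 (SE 1.13) with an unadjusted p of 0.000395 and an adjusted p of 1, so that it did not pass the correction over 14236 genes there, while it passed with DESeq2. Dhx35 was the only gene named in the text that met this condition.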

How the results depend on the processing

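The numbers of genes called were the results most dependent on the processing. Genes higher in the cardiomyocyte libraries numbered 3275 without TMM factors and 1053 with rep1 libraries alone, against 1591, and 396 to 1072 when a mouse was left out. Genes lower numbered 1316 to 2007 when a mouse was left out, against 2264. Without the replicate block, that is with the mouse left out of the paired fit, 2055 were higher and 2436 lower. Under each of the 13 alternatives, 0 of the 3855 called genes changed sign among those that were tested there. Leaving out a mouse moved the log2 fold change of Tcf21 between −1.43 and −0.18. The count of genes whose cell type difference depended on genotype was 1 with DESeq2, an alternative chosen after seeing the data, as was limma voom for that test. Without TMM factors, genes not called in the main fit turned positive for Actb (0.25), Arntl (0.25), Clock (0.31), Dcn (0.33), Gapdh (0.18), Islr (0.040), Pi16 (0.061), Sod1 (0.30) and Tlr4 (0.10). So did the medians of the endocardial and lymphatic (0.092), neutrophil and mast cell (0.28), matricellular (0.28), heat shock (0.20), translation (0.38) and control lists (0.18). Tmod1 turned to −0.0005 in the fit to 6 mice and −0.035 without a count filter, and Ckb to −0.002 without that filter. With a mouse left out, uncalled genes spanned 0, with log2 fold changes of −0.066 to 0.34 for Aldoa, −0.82 to 0.15 for Becn1, −0.27 to 0.31 for Ckb, −0.45 to 0.037 for Clock, −0.62 to 0.16 for Dcn, −1.31 to 0.22 for Ddr2, −1.04 to 0.012 for Islr, −1.07 to 0.070 for Pi16, −0.72 to 0.023 for Tlr4 and −0.13 to 0.15 for Tmod1. The same held for list medians, at −0.12 to 0.34 for endothelial markers, −0.13 to 0.14 for glycolysis, −0.51 to 0.11 for heat shock, −0.77 to 0.23 for matricellular, −0.74 to 0.41 for neutrophil and mast cell and −0.32 to 0.19 for translation. The cause of these changes was not tested. With nuclear counts of 2.26 to 3.14 M per cardiomyocyte column, low genes were less well measured there than in the fibroblast columns.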
